A study of Mus musculus with 36 samples.

Results

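Chromatin accessibility was examined at the loci of 5 genes of prostaglandin production and response: Pla2g4a, Ptgs1, Ptgs2, Ptges and Ptger4. A deposited peak was taken where its mm10 interval overlapped the annotated span of one of these genes or the 20 kb on either side. This gave 84 of 119751 peaks: 39 at Pla2g4a, 16 at Ptgs1, 8 at Ptgs2, 12 at Ptges and 9 at Ptger4. The genes were named by their role in the pathway, and no accessibility value enters the rule.

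The study used ATAC-seq, in which a transposase cuts and tags open chromatin, on bone marrow-derived dendritic cells, which are antigen-presenting cells grown from marrow with GM-CSF at 15 ng/mL. The mice were females of strain C57BL/6J aged 6 to 8 weeks, and the labels name no altered gene. Stimulation lasted 6 h, and 50000 cells were lysed for each library. There were 36 libraries in 18 groups of 2. An unstimulated control (Ctrl) stood beside 6 single ligands, labelled PAM (abbreviated P), LPS (L), HMW (H), "Zymosan depleted" (Z), SeV (S) and 3',3'-cGAMP (cG). The 8 pairs were PL, PH, LH, PS, PcG, ScG, ZS and ZcG, and the 3 triplets were PLH, PScG and ZScG, each named by the letters of its ligands. The triplets were picked at random by the submitters, and the question was how combined ligands compare with their parts. LPS is bacterial lipopolysaccharide, an agonist of Toll-like receptor 4, and cGAMP is a cyclic dinucleotide that activates STING. The labels do not say whether the 2 libraries of a group came from separate cultures or mice, so p-values measure only the spread between these libraries, which may be technical.

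Prostaglandins are lipid mediators made from arachidonic acid. Cytosolic phospholipase A2, encoded by Pla2g4a, frees arachidonic acid from membranes. The cyclooxygenases turn it into prostaglandin H2: Ptgs1 encodes the form present in many resting cells, and Ptgs2 the form that inflammatory stimuli induce. Microsomal prostaglandin E synthase, encoded by Ptges, then makes prostaglandin E2, and Ptger4 encodes EP4, one of its receptors, which signals through cyclic AMP. In dendritic cells this pathway is known for its effects on maturation, migration and cytokine output.

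The annotated start regions of the 5 genes are shown because 4 of them lie under a measured peak and because they differ in the letters they hold. The sequences are from RefSeq on GRCm38.p6, the patch release of the mm10 build, and each covers 300 bases around the gene start, most of them upstream. All 5 genes matched by symbol. Capitals mark matches to a motif on either strand, with the start base counted as 1. The windows are chr1:149961241-149961540 (minus strand) for Pla2g4a, chr2:36230176-36230475 (plus) for Ptgs1, chr1:150099781-150100080 (plus) for Ptgs2, chr2:30903248-30903547 (minus) for Ptges and chr15:5244138-5244437 (minus) for Ptger4.
Pla2g4a: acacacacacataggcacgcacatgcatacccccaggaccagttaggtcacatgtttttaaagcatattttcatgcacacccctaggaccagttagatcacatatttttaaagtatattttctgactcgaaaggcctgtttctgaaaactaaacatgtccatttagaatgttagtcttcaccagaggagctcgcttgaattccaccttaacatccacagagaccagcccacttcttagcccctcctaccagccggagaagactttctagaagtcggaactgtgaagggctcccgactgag
Ptgs1: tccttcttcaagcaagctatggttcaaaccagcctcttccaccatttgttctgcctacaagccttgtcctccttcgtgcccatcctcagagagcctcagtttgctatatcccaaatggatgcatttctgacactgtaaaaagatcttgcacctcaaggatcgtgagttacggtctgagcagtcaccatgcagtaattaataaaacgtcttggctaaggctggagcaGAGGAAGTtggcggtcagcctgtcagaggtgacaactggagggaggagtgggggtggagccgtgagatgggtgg
Ptgs2: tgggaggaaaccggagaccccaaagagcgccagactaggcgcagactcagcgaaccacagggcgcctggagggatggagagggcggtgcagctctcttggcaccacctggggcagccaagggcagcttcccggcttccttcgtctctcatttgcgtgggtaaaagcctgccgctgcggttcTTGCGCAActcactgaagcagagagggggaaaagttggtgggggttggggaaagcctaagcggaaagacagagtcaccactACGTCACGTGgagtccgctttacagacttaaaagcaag
Ptges: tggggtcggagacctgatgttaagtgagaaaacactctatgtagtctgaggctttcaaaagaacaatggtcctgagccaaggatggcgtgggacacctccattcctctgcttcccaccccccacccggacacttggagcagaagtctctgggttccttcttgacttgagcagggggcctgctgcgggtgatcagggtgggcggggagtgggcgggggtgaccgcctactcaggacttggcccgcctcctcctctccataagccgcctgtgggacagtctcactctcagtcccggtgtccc
Ptger4: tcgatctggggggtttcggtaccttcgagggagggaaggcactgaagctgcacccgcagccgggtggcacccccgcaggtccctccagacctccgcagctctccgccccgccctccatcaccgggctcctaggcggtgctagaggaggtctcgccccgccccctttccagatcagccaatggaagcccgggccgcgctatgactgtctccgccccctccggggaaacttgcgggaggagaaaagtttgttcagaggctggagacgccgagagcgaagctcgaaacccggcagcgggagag

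In the Ptgs2 window, TTGCGCAA at position -69 matched the C/EBP motif TTGCNNAA, which 10.8% of 32851 windows of all genes held. The run ACGTCACGTG joined a cyclic AMP response element core, ACGTCA, at position 13 with an overlapping E-box, CACGTG, at position 17. These occurred in 7.51% and 7.15% of windows. The Ptgs1 window held the PU.1 motif GAGGAAGT at position -24, found in 3.2% of windows. The Pla2g4a, Ptges and Ptger4 windows shown held none of the 8 motifs searched. A second annotated start window of Pla2g4a, not shown (chr1:149922390-149922689), held a TATAAA match at position -200. The other motifs were the kappaB consensus (8.46% of windows), AP-1 as TGANTCA (7.81%), the interferon-stimulated response element (3.44%) and TATAAA (13.6%). A match describes letters and was not tested as a binding site. G and C made up 45.3% of the Pla2g4a window, 50.7% at Ptgs1, 59.3% at Ptgs2, 60.0% at Ptges and 67.0% at Ptger4. Peaks overlapped 44.1% of all these windows, against 6.64% and 6.65% after shifting the windows by 100 kb to either side, so the peak and window coordinates match.

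Total counts per library ranged from 19097027 to 39977088, of which 44.1% to 63.1% fell on the mitochondrial chromosome's single peak. Without that peak, 8181254 to 21985891 counts remained per library. The mean mitochondrial share was 58.3% to 63.0% in Ctrl, Z, ZcG, ScG and ZScG and 44.4% to 54.5% in the other 13 groups. The labels name no batch. Levels below are CPM, read counts relative to the library's total outside the mitochondrial peak after TMM scaling. All 10 dendritic and myeloid marker genes had a peak at the start or, for 6 of them, at one or the other annotated gene end. Their summed level was 176 CPM in Ctrl and 155 to 195 over all groups. The levels of these 10 in Ctrl ran from 1.06 CPM at Zbtb46 and 3.81 at Ciita to 51.8 at Spi1. All 5 macrophage markers had such a peak too, and their sum was highest in Ctrl at 150 CPM and lowest in PScG. Of 7 neutrophil markers only S100a8 had one, from 18.9 CPM in Ctrl to 7.25 in ZScG. Only 1 of 5 T cell, 2 of 5 B cell, 1 of 4 mast cell and 1 of 4 stromal markers had a peak, with sums of 2.71 to 9.88 CPM. The part of these cells in the results was not tested. In these bulk samples a change in the share of cells and a change in accessibility per cell cannot be told apart.

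All 84 peaks passed the filter on low counts. A peak was called when its edgeR quasi-likelihood test had a Benjamini-Hochberg adjusted p under 0.05 over all 119464 tested peaks. In a test over all 17 stimulations together, 61 of the 84 peaks (72.6%) were called, against 62.5% of all peaks. They were 29 at Pla2g4a, 11 at Ptgs1, 7 at Ptgs2, 10 at Ptges and 4 at Ptger4. Summed over the 17 comparisons with Ctrl, the 84 peaks gave 358 calls higher and 212 lower of 1428 tests. That is 25.1% higher and 14.8% lower, where the background over all peaks was 13% higher, 12.3% lower and 25.2% in either direction. No peak was called in both directions: 42 were called only higher, 22 only lower and 20 not at all.

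The loci differed in direction. Ptges gave 112 calls higher and 0 lower (54.9% of 204 tests), and Ptgs2 gave 49 higher and 0 lower of 136. Ptgs1 gave 10 higher and 107 lower, so 39.3% of its 272 tests were lower. Pla2g4a was mixed, with 168 higher (25.3%) and 92 lower (13.9%) of 663. Ptger4 gave 19 higher (12.4%) and 13 lower (8.5%) of 153, shares not above the 13% and 12.3% of all peaks. The middle of the 17 median log2 fold changes was 1.17 at Ptges, 0.96 at Ptgs2, 0.31 at Ptger4, 0.17 at Pla2g4a and -0.65 at Ptgs1, against 0.02 over all peaks. Every median at Ptgs1 was below 0 (-0.85 to -0.32) and every median at Ptges above it (0.75 to 1.85). These comparisons share the same 2 Ctrl libraries. Without Ctrl replicate 1 the calls fell to 255 higher and 158 lower, of which Ptger4 had 14 and 2 and Pla2g4a 108 and 67. Scaling by total counts outside the mitochondrial peak, which moved the median of all peaks by up to 0.42 (L), gave 456 higher and 140 lower, where 20.7% of all tests were higher and 6.41% lower. Its split was 18 and 88 at Ptgs1, 65 and 0 at Ptgs2, 128 and 0 at Ptges, 209 and 51 at Pla2g4a and 36 and 1 at Ptger4.

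**Figure D1:**
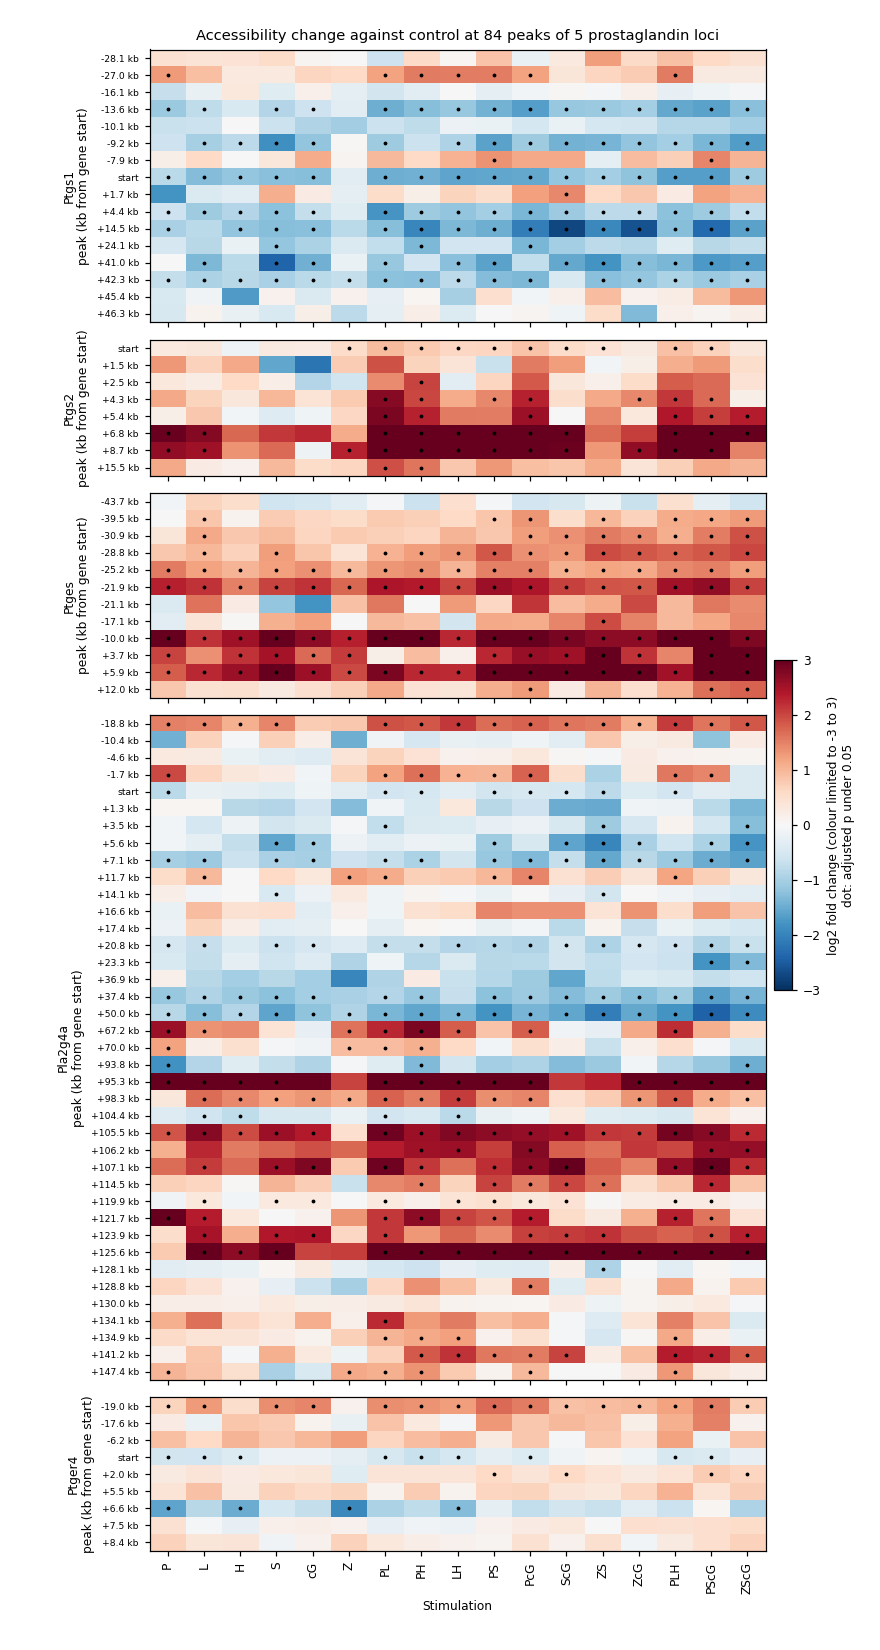
Log2 fold change against Ctrl (colour, limited to -3 to 3) of each of the 84 peaks (one line per peak, ordered within each gene by distance from the gene start in kb, upstream first) in the 17 stimulations (columns), with a dot where the adjusted p was under 0.05. Ptges and Ptgs2 have no call in blue, and most calls at Ptgs1 are blue.

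Single ligands changed between 15 and 33 of the 84 peaks. P changed 30 (20.5% of all tested peaks), L 33 (22.3%), H 20 (10.7%), S 29 (27.9%), cG 23 (23.3%) and Z 15 (5.91%). Z, with the fewest calls among all peaks, still changed 17.9% of these. Several of these counts moved by over 1.5 times without 1 library: without Ctrl replicate 1 there were 17 for P, 11 for H, 15 for cG and 4 for Z. Without P replicate 2 there were 19 for P, and without cG replicate 1 there were 15 for cG. For H, 10 remained called without H replicate 1 and 12 without H replicate 2. For Z, 4 were called without Z replicate 1, 7 without Ctrl replicate 2 and 9 without Z replicate 2. Among pairs, PL changed 44 (27.3%), PH 42 (26.3%), LH 34 (21.8%), PS 40 (33.4%), PcG 46 (32.9%), ScG 33 (27.7%), ZS 32 (28.3%) and ZcG 27 (21.6%). The triplets PLH, PScG and ZScG changed 41 (29.7%), 44 (37.1%) and 37 (32.3%). Without Ctrl replicate 1, ZcG changed 17 and ZScG 24. Between S and cG edgeR called 0 of the 84 peaks (0.949% of all peaks), 9 at an unadjusted p under 0.05 and 0 by DESeq2.

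Pla2g4a (chr1:149829618-149961290, minus strand), the phospholipase gene at the head of the pathway, had 39 peaks. Its start peak and a peak 1.7 kb upstream were called in opposite directions in P. The upstream peak (chr1:149962761-149963273) had 3.82 and 1.45 CPM in Ctrl and 9.69 and 10.9 in P (log2 fold change 1.99, SE 0.31, adjusted p = 5.7e-08). It was called higher in 8 stimulations, which were P, LH and the 6 other combinations that contain P. No single ligand except P was called there, and P exceeded each of them: by 1.35 log2 units against L (adjusted p = 8.6e-05), 1.64 against H (2.43e-06), 1.74 against S (1.31e-07), 2.08 against cG (2.45e-09) and 1.31 against Z (0.000515). The Ctrl libraries lie far apart at this peak. Without Ctrl replicate 2 the calls in PL, LH, PS and PScG were lost, and without Ctrl replicate 1 L and ScG were called as well.

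The Pla2g4a start peak (chr1:149960492-149961996) read 16.3 and 13.8 CPM in Ctrl and 9.38 and 7.73 in P (log2 fold change -0.81, SE 0.19, adjusted p = 0.000391). Both P libraries lay below both Ctrl libraries. It was called lower in 8 stimulations, but in only 1 when scaled by total counts. Of those 8 calls, 6 (PL, PH, PS, PcG, ScG and PLH) were lost when some single library was left out.

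Peaks inside Pla2g4a differed in the ligands that changed them. At 67.2 kb into the gene (chr1:149893835-149894316), Ctrl read 0.109 and 1.25 CPM, P 4.04 and 4.55 and PH 5.66 and 4.49. The log2 fold change was 2.58 in P (SE 0.49, adjusted p = 8.33e-06) and 2.82 in PH (4.33e-07). S, at 0.720 and 1.17 CPM, and cG, at 0.318 and 0.860, stayed within the Ctrl range. P exceeded S by 2.17 log2 units (adjusted p = 1.71e-05) and cG by 2.82 (3.24e-07). Adding S to P lowered it by 1.74 (log2 fold change -1.74, adjusted p = 0.000451). The Ctrl level at this peak rests on 1 and 13 counts. Of 8 calls against Ctrl, L, Z, PL, LH, PcG and PLH were lost without some single library, and those of P and PH were not.

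At 5.6 kb into Pla2g4a the single ligands called against Ctrl were S and cG, both lower, while P stayed near Ctrl. Ctrl read 9.83 and 8.59 CPM and P 8.70 and 8.81, while S read 3.21 and 3.01. The log2 fold change was -1.56 in S (SE 0.27, adjusted p = 9.37e-07), -1.04 in cG (0.00145) and -1.97 in ZS (3.97e-08), and P was 1.49 above S (1.85e-06). The 8 groups called lower were S, cG, PS, ScG, ZS, ZcG, PScG and ZScG, all of which hold S or cG. PcG, which also holds cG, was not called, at 7.75 and 5.42 CPM.

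Among other Pla2g4a peaks, the peak at 50.0 kb read 12.1 and 13.2 CPM in Ctrl and 1.62 and 2.99 in PScG (log2 fold change -2.43, SE 0.29, adjusted p = 2.54e-13). It was the only one of the 84 peaks called lower in all 17 stimulations, and in P, the smallest change, it fell by 0.83 (adjusted p = 0.00833). The peak at 105.5 kb read 0.874 and 0.772 CPM in Ctrl and 5.60 and 7.03 in PL (2.92, SE 0.40, adjusted p = 2.7e-10), and was called higher in every stimulation except Z. The peak with the highest mean level, at 119.9 kb, read 53.9 and 59.7 CPM in Ctrl and 79.4 and 79.7 in PS, and was called higher in 10 stimulations by at most 0.49 log2 units. Of these 10 calls 7 were lost without some single library, and 5 were made after thinning to the lowest depth. P and H, at 58.6 and 47.0 and at 57.0 and 50.9 CPM, were not called there, and L exceeded both (P minus L -0.42, adjusted p = 0.000747; L minus H 0.39, adjusted p = 0.00626).

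**Figure D2:**
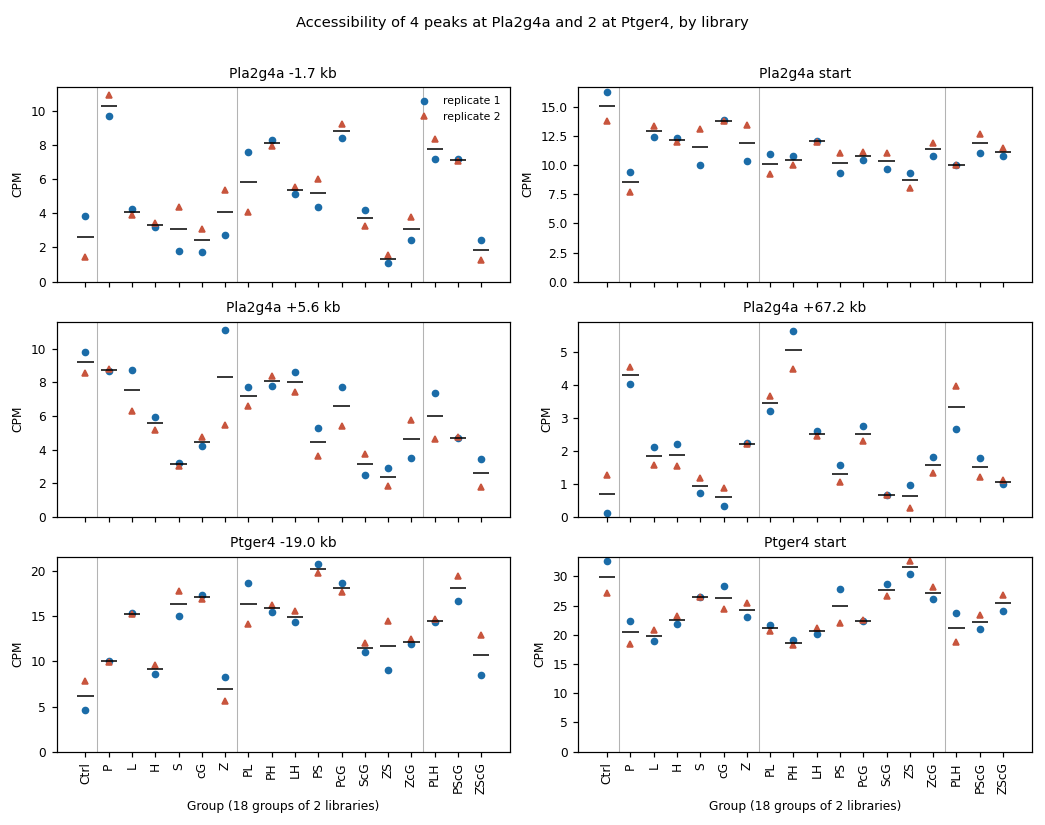
CPM of each library (circles, replicate 1; triangles, replicate 2; bar, mean of 2) in the 18 groups at 4 Pla2g4a peaks and 2 Ptger4 peaks, with axes starting at 0. P is highest at the peak 1.7 kb upstream of Pla2g4a (9.69 and 10.9 CPM) and lowest at its start, and S lies below Ctrl at the peak 5.6 kb inside.

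Ptgs1 (chr2:36216742-36258593, plus strand), the cyclooxygenase of resting cells, lost accessibility. Its start peak (chr2:36230127-36231272) read 30.6 and 27.1 CPM in Ctrl, the highest of all groups. P read 14 and 18.7 (log2 fold change -0.81, SE 0.17, adjusted p = 3.92e-05) and L 13.1 and 10.5 (-1.30, 6.23e-11). PLH was lowest at 9.91 and 8.34 (-1.66, SE 0.17, adjusted p = 9.44e-16). Both libraries of each of the 17 stimulations lay below both Ctrl libraries, and 16 were called lower, none of which was lost on leaving out any single library. Z, at 21.1 and 24.1 CPM, was not called (-0.35, adjusted p = 0.234), and L, H, S and cG each lay below Z, by 0.83 to 0.95 log2 units (adjusted p = 7.29e-06 to 0.00085).

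Combinations with P reached lower levels at the Ptgs1 start than P alone. PL, PH, PS and PcG were below P by 0.64 to 0.75 log2 units, with adjusted p of 0.00892, 0.0172, 0.000384 and 0.000816. The partners alone were low as well: the means of L, H, S and cG lay between P and these pairs. PS was not called below S at any Ptgs1 peak. Of the 16 Ptgs1 peaks, PL was called below L at 1, PH below H at 1 and PcG below cG at 2. Each pair lay above the sum of its single-ligand changes, by 0.65 in PL, 0.53 in PH, 0.52 in PS and 0.56 in PcG, and none of these terms was called. ScG, at 12.6 and 13.3 CPM, was not below S (12.6 and 11.4) or cG (11.2 and 12.4). A peak 13.6 kb upstream, at the outer annotated end of the gene, had a like pattern. It read 25.1 and 28.9 CPM in Ctrl and 7.90 and 9.31 in PcG (-1.66, SE 0.17, adjusted p = 4.27e-16). It was called lower in 15 stimulations, all but H and Z. The call in cG was lost without Ctrl replicate 2 (adjusted p = 0.0562).

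Further Ptgs1 peaks separated the ligands. One lay 41.0 kb from the start, past the gene's far end and within the 20 kb beyond it. There Ctrl read 7.87 and 4.25 CPM and P 5.34 and 6.50, while S read 0.785 and 1.48. S was called lower (-2.39, SE 0.39, adjusted p = 1.06e-07), P was not, and P exceeded S by 2.37 log2 units (8.27e-08). A peak 9.2 kb upstream read 8.52 and 10.4 CPM in Ctrl, 8.93 and 10.4 in Z and 2.22 and 3.08 in S (-1.83, SE 0.29, adjusted p = 3.53e-08). S minus Z there was -1.86 (6.87e-08). At the peak 41.0 kb from the start 9 of 12 calls were lost without some single library, and Ctrl replicate 1 was one such library for each. The S call was not lost.

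**Figure D3:**
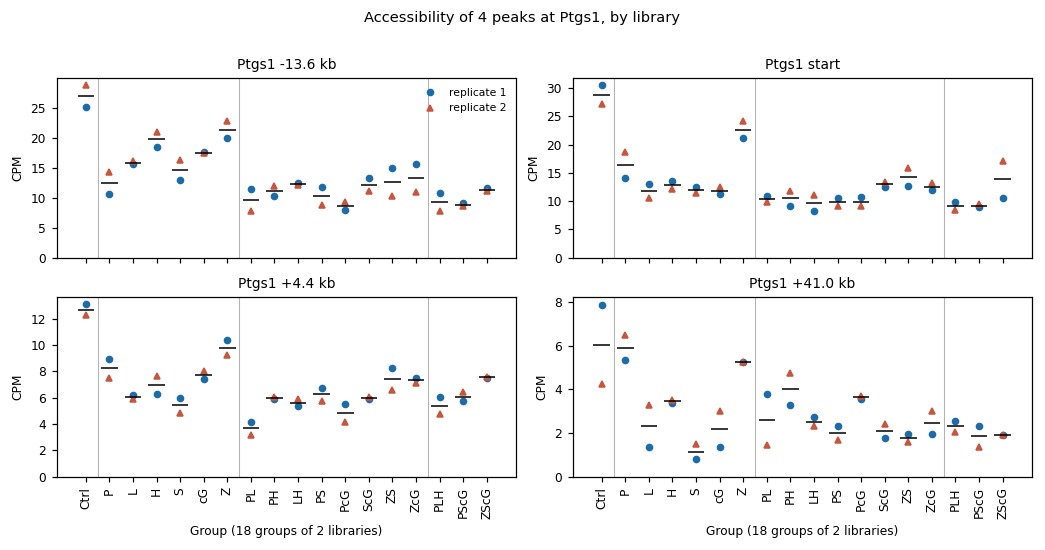
CPM of each library (circles, replicate 1; triangles, replicate 2; bar, mean of 2) in the 18 groups at 4 Ptgs1 peaks, with axes starting at 0. At the gene start the Ctrl libraries (30.6 and 27.1 CPM) lie above all others, and Z is nearest to them.

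Ptgs2 (chr1:150100031-150108234, plus strand), the inducible cyclooxygenase, was called higher mainly in combinations. Its start peak (chr1:150099401-150100484), which holds the C/EBP, cyclic AMP response element and E-box letters above and also overlaps the antisense gene Ptgs2os, read 13.6 and 13.0 CPM in Ctrl. P read 16.2 and 16.6, L 16.1 and 17.5, S 15.7 and 16.1 and cG 16.4 and 15.2, and none of these was called. PL read 25.9 and 25.7 (log2 fold change 0.96, SE 0.16, adjusted p = 1.33e-07), PcG 25.7 and 22.6 (0.86, 9.15e-07) and PLH 27.5 and 21.4 (0.88, 8.47e-07). Of 17 stimulations 10 were called higher: Z, 7 pairs and 2 triplets. Z, at 21.9 and 17.5 CPM (0.56, SE 0.16, adjusted p = 0.0198), was the only single ligand, and its call was lost without either Ctrl library or without Z replicate 1 (adjusted p = 0.0858, 0.129 and 0.306). The calls in ScG and ZS were lost without ScG replicate 1 (adjusted p = 0.146) and without any one of the Ctrl or ZS libraries. With total counts as the scale 14 were called.

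Pairs were compared with their own single ligands, which does not use Ctrl. At the Ptgs2 start, PL exceeded P by 0.65 (SE 0.15, adjusted p = 0.000737) and L by 0.62 (0.00721). Over the 8 Ptgs2 peaks, PL was called higher than P at 5 (4.17% of all peaks were higher in that comparison) and than L at 5 (0.765%). PcG was higher than P at 5 (7.39%) and than cG at 7 (5.59%), and PH was higher than P at 2 (1.7%) and than H at 5 (5.28%). PS was higher than S at 2 (2.44%) and than P at 0 (9.36%), with 4 at an unadjusted p under 0.05 and 0 by DESeq2. Over all 16 such comparisons the 8 Ptgs2 peaks gave 36 calls higher and 0 lower. Among all peaks, 3.56% of these tests were higher and 2.92% lower.

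The peak with the lowest p over all stimulations at Ptgs2 lay 8.7 kb from the start, just past the gene's end (chr1:150108253-150109109). It held 0.219 and 0.289 CPM in Ctrl, which are 2 and 3 counts, and 0.477 and 0.0 in cG. PL read 4.67 and 5.09 CPM (log2 fold change 4.20, SE 0.58, adjusted p = 7.06e-10), PcG 4.59 and 4.46 (4.10, 9.19e-10) and PLH 5.22 and 5.98 (4.40, SE 0.57, adjusted p = 4.26e-11). Both libraries of PL, PcG and PLH lay above all libraries of Ctrl and of the 6 single ligands. P read 1.07 and 2.24 and was called (2.65, adjusted p = 0.00107), although not without P replicate 2 (0.0805), and PcG exceeded cG by 4.26 (SE 0.55, adjusted p = 2.04e-10). ZS, at 0.645 in both libraries, and ZScG, at 1.12 and 0.276, were not called. Of 12 calls, those of Z and ScG were also lost without some single library. At these few counts the fold changes are imprecise, as their SE show.

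Inside Ptgs2, PL was again high. At 4.3 kb Ctrl read 0.437 and 1.06 CPM and PL 5.46 and 4.79 (log2 fold change 2.74, SE 0.47, adjusted p = 8.14e-07), and no single ligand was called. At 5.4 kb PL read 4.24 and 2.24 (2.82, SE 0.61, adjusted p = 8.62e-05) and no single ligand was called. ZScG, at 2.01 and 2.76 CPM, was called there (2.35, adjusted p = 0.00227), and ZScG and PScG each exceeded ScG (2.36 and 2.09, adjusted p = 0.0461 and 0.0315). At 6.8 kb Ctrl held 0 and 2 counts. PLH read 3.13 and 3.02 CPM, PL 3.02 and 2.75 and PcG 2.86 and 2.55, and single ligands 0.0 to 1.14. P and L were called higher there (adjusted p = 0.0125 and 0.0206). At each of the peaks at 4.3, 5.4 and 6.8 kb, some calls against Ctrl were lost without some single library.

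No departure from additivity on the log2 scale was called at Ptgs2 in 11 interaction comparisons, in which a pair is set against the sum of its single-ligand changes and a triplet against its pairs and singles. Of 88 tests 0 were called with edgeR, 9 had an unadjusted p under 0.05 and DESeq2 called 0. A p above the threshold does not show that the pairs equal the sum.

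**Figure D4:**
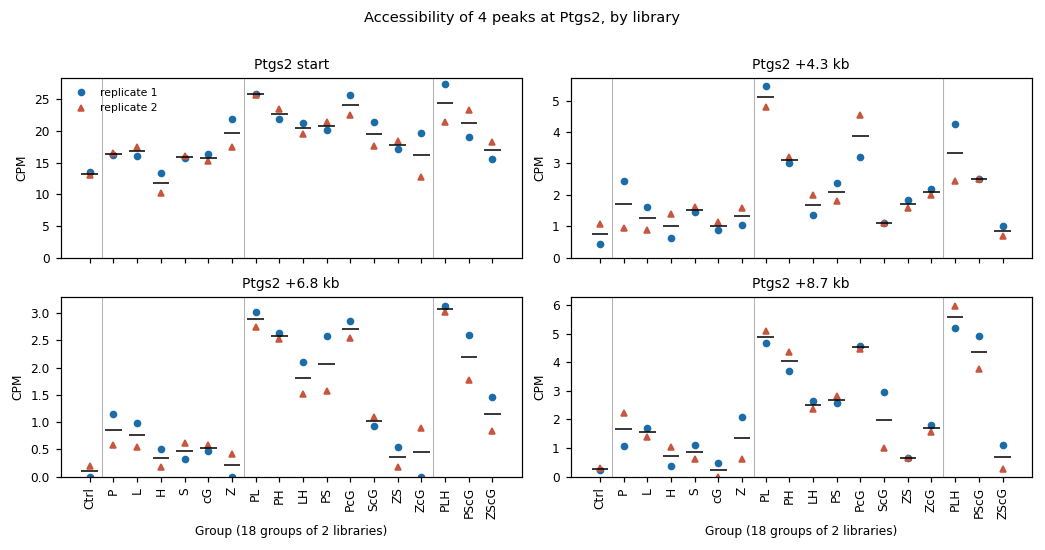
CPM of each library (circles, replicate 1; triangles, replicate 2; bar, mean of 2) in the 18 groups at 4 Ptgs2 peaks, with axes starting at 0. The means of PL, PcG and PLH lie above those of every single ligand in all 4 panels, and Z is the highest single ligand at the start (21.9 and 17.5 CPM).

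Across all groups the peaks most like the Ptgs2 start in pattern, by Pearson r of 18 group means of log2 CPM and at least 1 Mb away, lay 58.6 kb from Zfp947 (r = 0.91, chr17:22085256-22085705), in Dab2 (0.898, chr15:6412367-6412772) and in Aff1 (0.897, chr5:103705685-103706587). For the peak 8.7 kb from the start they lay 37.8 kb from Klf6 (0.946), in Spon1 (0.944) and 2.28 kb from Riox2 (0.931). The points share libraries and the peaks were picked as the highest of all, so these values are descriptions. Ptgs2 and Pla2g4a are neighbours, with starts 138.7 kb apart. The Ptgs2 peak 8.7 kb from the start and the Pla2g4a peak 1.7 kb upstream had r = 0.801 over the 18 groups.

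Ptges (chr2:30889471-30931020, minus strand), the inducible prostaglandin E synthase, gained accessibility in every stimulation. No deposited peak overlaps its main start, and 4 other peaks were higher in all 17 stimulations. They lay 10.0 kb (chr2:30912911-30913634), 21.9 kb (chr2:30924711-30925674) and 25.2 kb (chr2:30926810-30930266) upstream, within the annotated span, and 5.9 kb inside the gene (chr2:30897094-30897746). For the first 3 no call was lost on leaving out any library that was part of the comparison, and under total-count scaling all 4 stayed higher in 17.

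The Ptges peak 10.0 kb upstream read 1.31 and 2.12 CPM in Ctrl and 15.4 and 16.9 in P (log2 fold change 3.21, SE 0.25, adjusted p = 1.61e-25). S read 14.7 and 15.3, H 10.4 and 10.0, Z 8.79 and 8.71 and L 7.63 and 8.03, and PS was highest at 18.1 and 18 (3.37, SE 0.24, adjusted p = 8.66e-29). No library of any stimulation overlapped Ctrl. The single ligands were graded: P exceeded L by 1.04 log2 units (adjusted p = 1.71e-06), H by 0.66 (0.004), cG by 0.52 (0.0165) and Z by 0.89 (0.000276). S exceeded L by 0.93 (L minus S -0.93, adjusted p = 2.25e-05), and P minus S was not called. In the 4 stimulations with a high mitochondrial share the log2 fold changes were 2.33 for Z, 2.84 for ScG, 2.68 for ZcG and 2.79 for ZScG.

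At 21.9 kb upstream of Ptges, Ctrl read 5.79 and 9.36 CPM, P 39.0 and 37.8 (2.33, SE 0.15, adjusted p = 9.68e-34), H 23.1 and 20.7 and PScG 46.4 and 49.9 (2.65, 6.13e-41). H was the lowest stimulation here and lay below P (P minus H 0.81, adjusted p = 4.87e-08), L (0.64, 7.42e-05), S (H minus S -0.52, 0.00142) and cG (-0.65, 5.39e-05). The widest and most accessible Ptges peak, 25.2 kb upstream and 3457 bp long, read 32.7 and 28.1 CPM in Ctrl, 82.3 and 95.0 in P (1.55, SE 0.10, adjusted p = 6.94e-32) and 59.5 and 59.4 in Z (0.97, 1.06e-13). The 2 peaks had r = 0.967 over the 18 group means, as a description.

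The peaks inside Ptges ranked the ligands in another order. At 5.9 kb Ctrl read 0.0 and 1.06 CPM (0 and 11 counts), P 1.68 and 2.31, S 5.23 and 6.52 (3.37, SE 0.43, adjusted p = 1.28e-11) and PScG 10.5 and 9.82 (4.16, 8.52e-18). S exceeded P (P minus S -1.55, SE 0.32, adjusted p = 3.31e-05), the opposite of the 25.2 kb peak, where P exceeded S (0.32, 0.00523). Without Ctrl replicate 1 the calls in P, L, Z and LH at 5.9 kb were lost. At 3.7 kb, the peak nearest the start, Ctrl read 0.437 and 0.386 CPM, S 2.42 and 2.28, PScG 4.85 and 4.84 (3.53, SE 0.55, adjusted p = 1.54e-08) and ZScG 3.80 and 6.34 (3.59, 2.95e-08). PL (0.431 and 0.509) and LH (0.371 and 0.555) were at the Ctrl level. PL lay below P (-1.85, adjusted p = 0.0213) and LH below H (-2.03, adjusted p = 0.0108), although P alone was not called against Ctrl without P replicate 2 (0.356) and H not without H replicate 1 (0.0788).

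**Figure D5:**
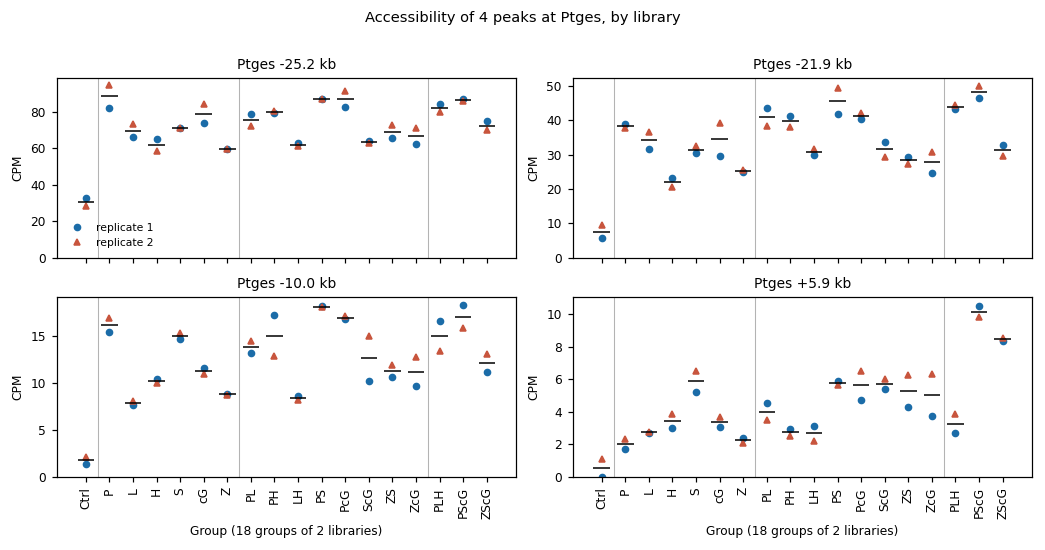
CPM of each library (circles, replicate 1; triangles, replicate 2; bar, mean of 2) in the 18 groups at 4 Ptges peaks, with axes starting at 0. Every stimulated library lies above both Ctrl libraries at the peaks 10.0, 21.9 and 25.2 kb upstream.

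Combinations at Ptges stayed below the sum of their parts. Over 8 pairs its 12 peaks gave 32 interaction calls lower and 0 higher, out of 47 lower and 15 higher for the 84 peaks, where 3.1% of all tests were lower and 2.07% higher. At the peak 10.0 kb upstream the pair interaction ran from -2.95 to -2.33, at 21.9 kb from -2.16 to -1.47 and at 25.2 kb from -1.54 to -1.01. All 10 triplet interactions called among the 84 peaks were at Ptges and higher (0.837% of all tests), with values of 2.69 to 2.79 at 10.0 kb. A triplet term sets the triplet against its pairs and single ligands together. Above 0 it does not place the triplet above the sum of its single-ligand changes. Every one of these terms contains the same 2 Ctrl libraries. Against their single ligands, pairs gave 20 calls higher and 3 lower at Ptges, of 113 higher and 51 lower over the 84 peaks (3.56% and 2.92% of all tests). PS exceeded S at 21.9 kb (0.54, SE 0.11, adjusted p = 0.00059) and was not called against P.

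Called differences between triplets and their pairs were few at the 84 peaks, as they were among all peaks (1.11% of tests). The share of the 84 peaks called was 3.57% in PLH against LH and 4.76% in PScG against ScG. It was 1.19% in PScG against PS and in ZScG against ScG, and no peak was called in the other comparisons. Of 9 calls in 9 comparisons, 5 were at Ptges. PLH exceeded LH at 10.0 kb (log2 difference 0.84, adjusted p = 0.00481), 21.9 kb (0.52, 0.0105) and 25.2 kb (0.41, 0.0127) upstream. PScG exceeded ScG at 21.9 kb (0.61, 0.000151) and 25.2 kb (0.45, 0.000657). In each of these the triplet holds P and the pair does not. The mitochondrial share also differed, at 59.4% in ScG and 45.1% in PScG, and 51.6% in LH and 47.4% in PLH. Its part in these differences was not tested. LH added nothing called to L (0 of 84 peaks, 0.0645% of all, 9 at an unadjusted p under 0.05, DESeq2 0), and neither did ZS to S (0 of 84, 2.53%, 15 at an unadjusted p under 0.05, DESeq2 0). Single ligands differed from each other in 163 tests of the 84 peaks over 15 comparisons, a share near the 11.4% of all peaks. Per comparison the share ran from 0.0% of the 84 peaks in S against cG to 27.4% in P against S.

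Ptger4 (chr15:5233399-5244187, minus strand), the EP4 receptor gene, changed at 4 of 9 peaks in the test over all stimulations. That is 44.4%, below the 62.5% of all peaks. A peak 19.0 kb upstream (chr15:5262713-5263636), which also overlaps the noncoding gene Gm41257, rose. It read 4.59 and 7.82 CPM in Ctrl, 17.4 and 17 in cG (log2 fold change 1.46, SE 0.19, adjusted p = 2.12e-10), 15.1 and 17.8 in S and 20.8 and 19.8 in PS (1.69, SE 0.19, adjusted p = 1.58e-14). It was called higher in 15 stimulations, all but H (8.64 and 9.65) and Z (8.27 and 5.56). P, at 10.1 and 9.97 CPM (0.68, adjusted p = 0.009), was below L, S and cG by 0.61, 0.71 and 0.78 (adjusted p = 0.0088, 0.000564 and 0.000175). Without Ctrl replicate 1 the calls in P, ScG, ZS, ZcG and ZScG were lost.

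ScG, at 11.1 and 12.0 CPM, lay below cG alone at this Ptger4 peak (-0.58, SE 0.18, adjusted p = 0.034), and PScG exceeded ScG by 0.66 (adjusted p = 0.012). The mitochondrial share of ScG was 59.4%, against 46.1% in cG and 45.1% in PScG, and its part in this difference was not tested. Over the 18 group means this peak and the Ptgs1 start had r = -0.906 (a description over shared libraries).

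The Ptger4 start peak (chr15:5243177-5244956) read 32.7 and 27.1 CPM in Ctrl and 19.1 and 18.3 in PH (-0.68, SE 0.13, adjusted p = 1.39e-05). It was called lower in 9 stimulations, and in 0 when scaled by total counts. P lay below S and cG there (-0.38 and -0.37, adjusted p = 0.0212 and 0.0262), a comparison without Ctrl. Without Ctrl replicate 1 the calls in P, H, PL, LH, PcG, PLH and PScG were lost. A peak 2.0 kb inside the gene was called higher in PS, ScG, PScG and ZScG, by 0.76 in PScG (SE 0.20, adjusted p = 0.000983), and in 14 stimulations when scaled by total counts. S alone, at 10.7 and 10.3 CPM (adjusted p = 0.249), and ZS, at 12.0 and 10.5, were not called. All 4 of those calls were lost without some single library.

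The wider pathway was surveyed at 34 other genes with 362 peaks, of which 357 were distinct because neighbouring genes share some. Of the 362, 221 (61.0%) were called in the test over all stimulations, close to the 62.5% of all peaks. Over the 17 comparisons they gave 655 calls higher (10.6%) and 790 lower (12.8%). Beside the 13% higher and 12.3% lower of all peaks, terminal synthases other than Ptges gave 16.2% higher and 11.6% lower, receptors 8.14% and 13.2%, and other phospholipases 13.5% and 6.25%. Transport and breakdown genes gave 7.2% and 19.7%, and the leukotriene arm 6.37% and 15.1%. Several of these shares lie near those of all peaks.

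Among these genes Hpgd, which encodes the dehydrogenase that inactivates prostaglandin E2, gave 75 calls lower (63.0% of its tests) and 0 higher over 7 peaks. Its peak at chr8:56284894-56285284 fell from 4.77 ± 1.29 CPM in Ctrl (SD, n = 2) to 0.721 ± 0.372 in S, or -2.70 in log2 units (SE 0.57, adjusted p = 5.06e-05). Hpgds, the prostaglandin D synthase of blood cells, gave 90 lower (44.1%) and 18 higher over 12 peaks. Its peak at chr6:65164940-65165430 fell from 9.28 ± 0.923 CPM to 0.944 ± 0.317 in S (-3.28, SE 0.45, adjusted p = 4.09e-10), and to 1.12 in L, 1.20 in cG, 1.69 in H and 1.70 in P. Alox5ap, which presents arachidonic acid to 5-lipoxygenase in leukotriene synthesis, gave 73 lower (42.9%) and 6 higher.

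Among receptors, Ptger3, the EP3 receptor, gave 97 calls lower (40.8%) and 13 higher, and Ptgdr, a prostaglandin D2 receptor, 32 lower (47.1%) and 0 higher. Ptger1, the EP1 receptor, gave 16.2% higher and Tbxa2r, the thromboxane receptor, 16.9%, against 13% of all peaks. Ptger2, the EP2 receptor, gave 2 calls higher (0.905%) and 19 lower (8.6%). Ptgir, the prostacyclin receptor, gave 25 higher (9.19%) and 26 lower (9.56%). The shares of Ptger2 and Ptgir lie below the 13% higher and 12.3% lower of all peaks. A peak at Ptger1 (chr8:83686109-83686705) rose from 0.884 ± 0.295 CPM in Ctrl to 8.00 ± 0.272 in cG (3.18, SE 0.35, adjusted p = 2.66e-14). Among synthases, Ptges3 gave 47 calls higher (27.6%) and 0 lower. A peak in Tbxas1, thromboxane synthase, rose from 1.81 ± 0.376 CPM to 12.7 ± 0.0871 in P (2.81, SE 0.28, adjusted p = 8.5e-17). These genes were listed by role, with earlier results of these data known.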

How the data were processed

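Per the submitters' processing notes, Bowtie2 2.2.9, MACS2 (version given as 1.4), bedtools, featureCounts and mm10 were used; their order, duplicate removal, transposase shift and pooling for peak calling are not given in the sources used here. The authors deposited raw whole-number counts for 119751 peaks in 36 libraries, and 0 count columns were left unused. Members and gene lists were chosen with earlier results of these data known. The mitochondrial peak was removed, and filterByExpr by group (minimum count 10) removed a further 286, so that 119464 peaks were tested. After TMM normalization the model was fitted with edgeR 4.0.16 (R 4.3.3) by glmQLFit (robust) and glmQLFTest, 1 coefficient per group, 36 libraries in one fit and 18 residual degrees of freedom. P-values were adjusted by Benjamini-Hochberg over all tested peaks within each of 68 contrasts, with a threshold of 0.05. SE is the log2 fold change divided by the square root of F. The procedure was tested on simulated data.

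Named for each gene were the peak at its start (or the nearest), up to 4 further peaks with the lowest p over all stimulations and the peak with the highest mean level. Other pathway genes were named by the 3 largest called changes in either direction per single ligand. The Pla2g4a peaks at 50.0 and 105.5 kb, and the pathway genes given by counts of calls, were singled out after their values were seen. Distances run from the gene start to the peak's centre, and gene spans, starts and symbols are from RefSeq, GRCm38.p6. Replicates differed by more than counting noise (chi-square per degree of freedom 2.05 to 3.23). Alternatives were DESeq2 1.42.0, other scalings, abundance-dependent offsets, no filter, the mitochondrial peak kept, thinning to the lowest depth, only the groups compared, a replicate block and leaving out each library. Reads carry no molecular identifiers, so depth covers counting error only.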

Additional observations from a re-analysis of the deposited data

Results flagged for a closer look

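Each value here is an interaction term on the log2 scale, a test of the difference itself. In a pair term a ligand's effect is compared in the presence and absence of another. Below 0 a pair lies under the sum of its parts. A triplet term adds the triplet and its single ligands and subtracts its pairs and Ctrl. Above 0 it does not place a triplet above the sum of its single-ligand changes. All terms share the same 2 Ctrl libraries, and no explanation was tested. Only peaks named by the rule are listed; other peaks of the same genes also had called terms, so that Ptgs1 had 8 above 0 in pairs and Pla2g4a 6 above and 14 below 0.

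At the Ptges peak 10.0 kb upstream the term was -2.4 in PL, -2.66 in PH, -2.45 in LH, -2.94 in PS, -2.62 in PcG, -2.95 in ScG, -2.73 in ZS and -2.33 in ZcG. The triplet terms there were 2.69 in PLH, 2.79 in PScG and 2.69 in ZScG. At 21.9 kb upstream of Ptges it was -2.06 in PL, -1.47 in PH, -1.68 in LH, -1.79 in PS, -2.07 in PcG, -2.16 in ScG, -1.86 in ZS and -2.03 in ZcG, with 1.72 in PLH, 2.15 in PScG and 2.16 in ZScG. At 25.2 kb it was -1.43 in PL, -1.18 in PH, -1.2 in LH, -1.26 in PS, -1.41 in PcG, -1.54 in ScG, -1.01 in ZS and -1.21 in ZcG, with 1.46 in PLH, 1.56 in PScG and 1.44 in ZScG. All 8 pairs were thus below additivity at these 3 Ptges peaks.

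Inside Ptges, the peak at 5.9 kb had -2.13 in PH, -2.6 in LH, -1.85 in PS, -2.61 in ScG and -2.11 in ZS. The peak at 3.7 kb had -3.21 in PL, -3.26 in PH and -3.39 in LH, and 5.76 in PLH (SE 1.12). These terms rest on few counts: 4 and 4 in Ctrl, 6 and 5 in PL and 6 and 7 in LH.

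At the named Ptgs1 peaks, which fell, the terms were above 0: 1.6 in ScG at 9.2 kb upstream, 0.88 in LH and 1.39 in ScG at the start, and 2.3 in ScG at 41.0 kb. Pla2g4a had -1.43 in PL and -1.88 in ZS at 1.7 kb upstream, -2.15 in PS at 67.2 kb, and -1.22 in PS and -1.54 in ZS at 70.0 kb. Ptger4 had 0.64 in PL at its start and -1.97 in ScG at 19.0 kb upstream.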

How the results depend on the processing

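No named result reversed in any of 45 settings, and over all pairs of one of 287 named results and a setting other than leaving out a library, 2481 kept their direction and side of the threshold, while 68 lost and 34 gained a call. Total-count scaling accounted for 21 of the losses and 23 of the gains. Among counts of the 84 peaks, Z against Ctrl went from 15 to 9 when libraries were thinned to the lowest depth and to 7 with only the groups compared. Triplet interactions went from 10 to 18 with total counts, and triplet against pair calls from 9 to 22 with total counts, 5 after thinning and 15 with only the groups compared. The cause was not tested.

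With one library left out, counts against Ctrl ran from 17 to 24 for P, 10 to 14 for H, 15 to 21 for cG, 4 to 9 for Z, 17 to 26 for ZcG and 24 to 34 for ZScG. Triplet against pair calls ran from 6 to 11 and triplet interactions from 10 to 15. Over all pairs of a named result and such a fit, 1274 stayed on their side of the threshold, called or not, 153 lost and 13 gained a call; the fits reuse the dispersion trend and assume that a lone library varies like the other groups. Same-numbered replicates did not deviate together (correlations of -0.04 to 0.03 over 153 pairs of groups, 0 above 0.1), and a replicate block gave 358 calls higher and 215 lower, against 358 and 212 without it. Depth limits the low peaks: at 8.7 kb from the Ptgs2 start Ctrl held 2 and 3 counts.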
